A study of Rattus norvegicus with 40 samples.

Results

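Hippocampal slices from aged-impaired rats that received intermittent theta burst stimulation (iTBS) were compared with slices of the same rats that received 1 Hz stimulation. The arrays were chosen by their titles alone, as the primary arrays of iTBS and 1 Hz in aged-impaired (AI) rats 1 to 4, without sham arrays and without repeat hybridizations, and they make up 8 of the 40 arrays of the series. All rats were male Long-Evans. AI rats are aged animals whose learning in the Morris water maze was worse than that of young rats, while aged-unimpaired (AU) rats learned as well as the young. The sample labels gave an age of 25 to 26 months for the AI and the AU rats, and the treatment protocol 24 to 25 months. The young rats were far younger, with the same age in the labels and in the protocol. Both treatments were given ex vivo, with the slices 1 cm below the coil at 15% of the stimulator's output, after 1 h in artificial cerebrospinal fluid at 32 °C. Sham slices lay 20 cm from the coil. RNA was collected 1 h after stimulation according to the labels and after a rest of 2 h according to the protocol. Serial slices of each rat were divided among 1 Hz, iTBS and sham dishes, so every comparison below is between dishes of 1 rat, the number of rats is 4, and each array holds all cell types of the slices. In such bulk RNA, fewer cells of a type and less RNA per cell cannot be told apart.

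Repetitive transcranial magnetic stimulation (rTMS) induces currents in neural tissue through a changing magnetic field. Trains at a low steady rate such as 1 Hz are usually described as lowering cortical excitability, and iTBS, which delivers short high-frequency bursts in repeated trains, as raising it. Neuronal activity is known to switch on immediate early genes such as Fos, Arc and Egr1 within minutes to hours, and later genes such as Bdnf, and slicing itself is known to induce stress and inflammatory genes in brain tissue.

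Levels are given as the z-score of the log2 signal within an array times 4.158, the mean standard deviation (SD) of log2 signals over the 36 primary arrays, so that a level of 0 is the mean of all probes of that array and differences are on a log2 scale. A difference is always iTBS minus 1 Hz in the same rat, and its standard error (SE) comes from a limma fit with the rat as a block (n = 4 rats). Markers of pyramidal neurons were measured for 8 of 8 genes and of dentate granule cells for 5 of the 6 genes on the array. Prox1, the transcription factor of dentate granule cells, lay between 5.43 and 6.29 on the 8 arrays, and Camk2a, a kinase of excitatory synapses, between 2.96 and 4.24, far above the array mean in each case. The SD of log2 signals was smaller on the iTBS array than on the 1 Hz array in 4 of 4 rats, by -0.31, -0.20, -0.33 and -0.13 in rats 1 to 4. The share of all 45598 non-control probes that was well above background was 89.9% on iTBS and 77.6% on 1 Hz in rat 1, and lay between 69.7% and 76.1% on the other 6 arrays. In rats 2, 3 and 4 both arrays were on 1 slide, and in rat 1 they were on different slides, so the differences of rats 2 to 4 are also within-slide differences.

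No gene passed the test between iTBS and 1 Hz in AI slices. Of 33963 probes tested with limma, 0 (0%) had an adjusted p under 0.05, and the smallest adjusted p was 0.235. The unadjusted p was under 0.05 for 6009 probes (17.7%), of which 1961 were higher and 4048 lower in iTBS. The criteria of the study's methods, applied to the same z-scores, called 1 probe of 45598 (0.00219%), that of Defb43, a defensin, which was higher in iTBS. Among 13560 genes, each represented by its brightest probe, 2372 (17.5%) had an unadjusted p under 0.05, with 601 (4.43%) higher and 1771 (13.1%) lower. All changes below therefore stand as values that did not pass the threshold, and are given with the number of rats that show the direction.

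The excess of lower genes depended on how the arrays were scaled and on how bright a gene was. Of 13535 genes measured in all rats, 1079 (7.97%) were higher and 3071 (22.7%) lower in iTBS in 4 of 4 rats on the z-score scale. After background correction and quantile normalization, which gives every array the same distribution of signals, these counts were 1108 (8.19%) and 1268 (9.37%). With each array centred on its 75th percentile alone they were 2048 (15.1%) and 653 (4.82%). The median difference of all genes tested was -0.095 by z-score, 0.037 by 75th percentile and -0.012 by quantile normalization. With the genes sorted by mean level into 10 bins of 1356, bin 5 had a median difference of -0.212 by z-score and 41.8% of them were lower in 4 of 4 rats, whereas the brightest bin had a median of 0.124 and 37.8% were higher in 4 of 4 rats. By quantile normalization the medians of the bins lay between -0.033 and 0.013. The smaller SD of the iTBS arrays accompanied these shifts in 4 of 4 rats, and its part in the values of single genes was not tested. Values after quantile normalization are therefore given beside those by z-score. Unless stated otherwise, the number of rats that show a direction is that on the z-score scale. For some genes fewer rats showed it by quantile normalization.

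**Figure D1:**
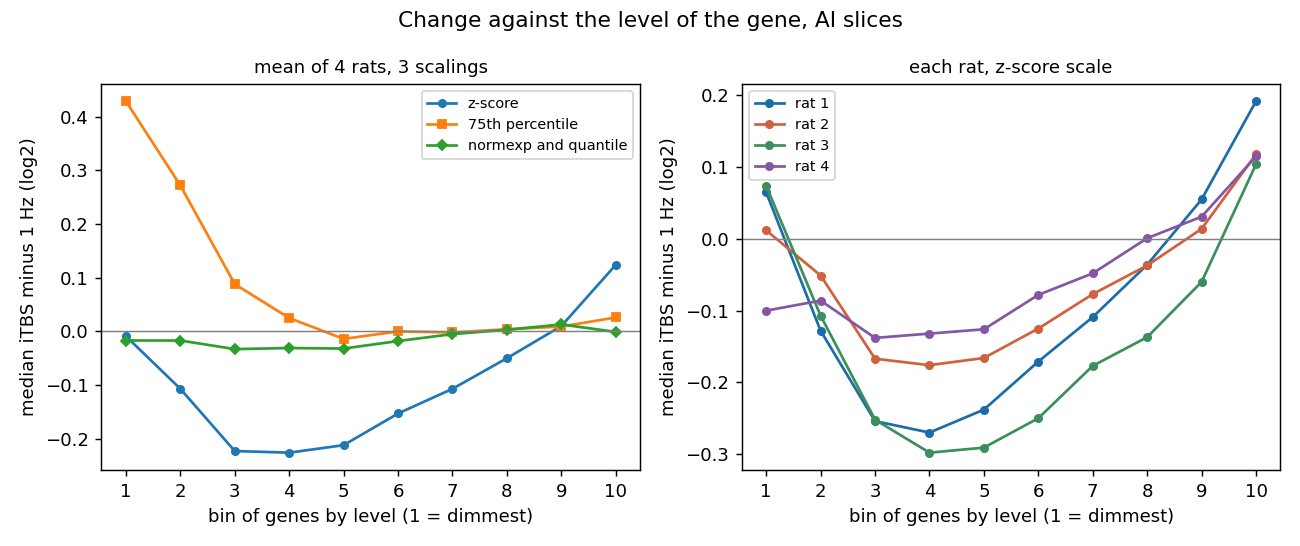
Median difference between iTBS and 1 Hz (log2, y axis) of genes sorted by mean level into 10 bins (x axis, dimmest to brightest), for the mean of 4 rats under 3 scalings on the left and for each rat on the z-score scale on the right. On the z-score scale bin 5 sat at -0.212 and the brightest at 0.124, while the quantile-normalized medians stayed between -0.033 and 0.013.

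The classic activity markers showed no difference between the protocols that exceeded the spread between rats. Fos, the immediate early transcription factor most used as a mark of neuronal firing, measured 3.47, 3.69, 3.75 and 3.45 in 1 Hz slices of rats 1 to 4 and 3.65, 3.49, 3.61 and 3.43 in iTBS slices. The groups overlapped over nearly their whole range, and the difference was -0.04 ± 0.11 (SE), with a 95% interval of -0.31 to 0.23 and 0.02 by quantile normalization. Arc, which encodes a synaptic protein that governs AMPA receptor removal, measured 4.41, 3.89, 3.75 and 4.05 in 1 Hz and 4.42, 4.04, 3.89 and 4.18 in iTBS. It was higher in iTBS in 4 of 4 rats by 0.01 to 0.15, its interval of -0.13 to 0.34 included 0, and the difference was 0.13 by quantile normalization. Egr1, another activity-dependent transcription factor, differed by 0.10 with an interval of -0.21 to 0.40, and by 0.07 by quantile normalization. In sham slices Fos lay between 3.49 and 3.95 and Arc between 3.67 and 4.94, so the sham range was wider than the difference between the protocols.

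Other immediate early genes differed more, and those with the smallest p were lower in iTBS. Dusp1, a phosphatase that switches off MAP kinases, measured 1.65, 0.93, 0.85 and 1.46 in 1 Hz and 1.08, 0.02, 0.43 and 0.85 in iTBS. It was lower in iTBS in 4 of 4 rats although the groups overlapped, by -0.63 ± 0.12 (limma adjusted p = 0.235), or -0.37 by quantile normalization. Npas4, a neuron-specific factor induced by calcium entry, was lower in 4 of 4 rats by -0.88 ± 0.19 (-0.20 by quantile normalization), but only 3 of 4 arrays of 1 Hz and 2 of 4 of iTBS measured it well above background. Maff, a small basic leucine zipper factor, was lower by -0.43 ± 0.12 in 4 of 4 rats and by -0.25 by quantile normalization. Jun, the partner of Fos in AP-1, which was chosen after its values were seen, went the other way, with a difference of 0.31 in 4 of 4 rats (0.19 by quantile normalization). Over the 26 immediate early genes, 0 passed the adjusted threshold, 1 was higher and 3 lower at an unadjusted p under 0.05 (4.43% and 13.1% of all genes), and their median difference was -0.031 by z-score but 0.062 by 75th percentile and 0.014 by quantile normalization, beside -0.095, 0.037 and -0.012 for all genes. In 4 of 4 rats 6 of the 26 were higher and 4 lower by z-score (7.97% and 22.7% of all genes), and 1 and 2 by quantile normalization (8.19% and 9.37%). By quantile normalization 1 was higher and 4 lower at an unadjusted p under 0.05 (4.14% and 4.48%). Of 14 later activity-regulated genes, 0 were past an unadjusted p of 0.05 in either direction by z-score. Bdnf, the neurotrophin of activity-dependent plasticity, was lower in 4 of 4 rats by -0.24 ± 0.11, and by -0.04 by quantile normalization.

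**Figure D2:**
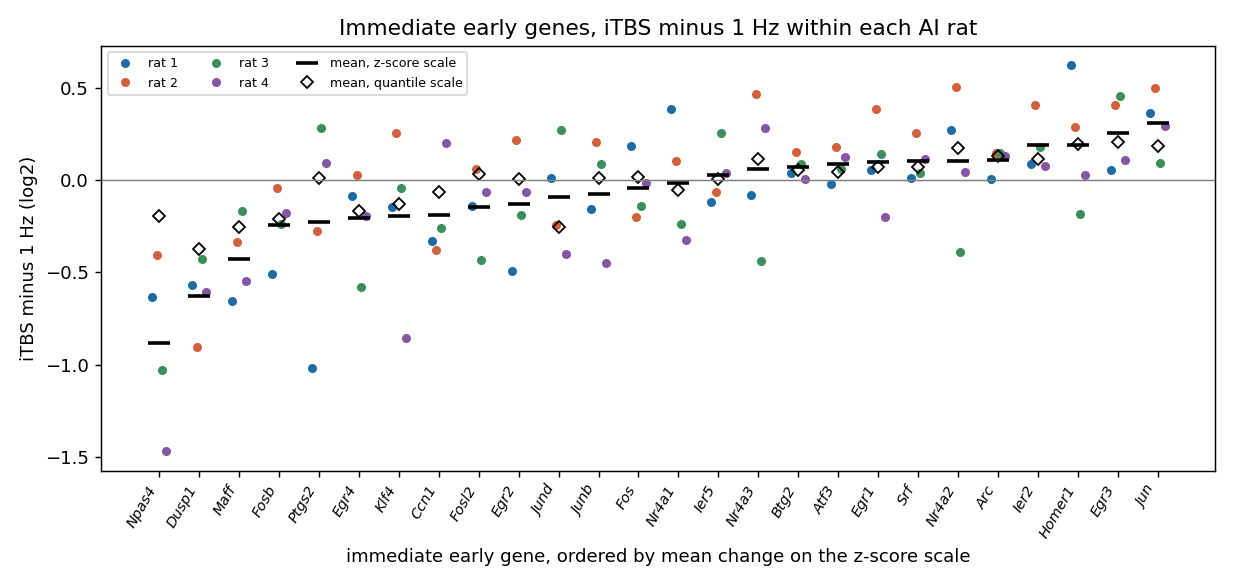
Difference between iTBS and 1 Hz (log2, y axis) of each immediate early gene (x axis, ordered by mean change) in each AI rat, with the mean on the z-score scale and after quantile normalization. Npas4 and Dusp1 lay below 0 in 4 of 4 rats, Fos and Egr1 had rats on both sides of 0, and Jun lay above 0 in 4 of 4 rats.

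Among the genes of glutamate receptors, GABA signalling and synapses, the largest difference was that of Grin2d. Grin2d, the GluN2D subunit of NMDA receptors, measured 8.67, 6.74, 7.64 and 7.92 in 1 Hz and 8.97, 7.90, 9.02 and 8.92 in iTBS. Each rat was higher in iTBS, by 0.30, 1.16, 1.38 and 0.99, the groups overlapped because rat 2 was low in both, and the mean difference was 0.96 ± 0.19, or 1.94-fold (limma adjusted p = 0.235), and 0.70 by quantile normalization. Sham slices of the same rats measured 7.21, 9.65, 8.11 and 7.66 and thus spread more widely than both groups, from above the highest iTBS slice to below all 1 Hz slices but that of rat 2. The other probe of Grin2d was much dimmer, at -0.82 on average, and differed by 0.20 ± 0.15 in the same direction in 3 of 4 rats.

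Gria1, the GluA1 subunit of AMPA receptors, and Grin2a, the GluN2A subunit of NMDA receptors, were chosen after their values were seen. Gria1 measured 4.46, 3.71, 4.12 and 4.68 in 1 Hz and 4.80, 4.60, 4.48 and 4.75 in iTBS, higher in 4 of 4 rats by 0.42 ± 0.15 (0.48 by quantile normalization), with the largest gap in rat 2 and the smallest in rat 4. Grin2a was higher in 4 of 4 rats by 0.28 ± 0.11 (0.30 by quantile normalization), and second probes of Gria1 and Grin2a gave 0.25 and 0.19, also in 4 of 4 rats. Lower in 4 of 4 rats were Grik4, a kainate receptor subunit, by -0.46 ± 0.14 with no overlap between the groups, and Grm4, a presynaptic metabotropic receptor, by -0.37 ± 0.11. These became -0.19 and -0.16 by quantile normalization. Of the 24 glutamate receptor genes, 5 were higher and 4 lower in 4 of 4 rats (7.97% and 22.7% of all genes). By quantile normalization 5 were higher and 0 lower (8.19% and 9.37%). Their median difference was 0.033 by z-score and 0.106 by quantile normalization, and 0 of the 24 passed the adjusted threshold.

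By z-score, an unadjusted p under 0.05 was found for 3 higher and 3 lower glutamate receptor genes, and for 1 and 1 of GABA signalling. Over all genes, 4.43% were higher and 13.1% lower at that p. Of 22 genes of GABA signalling, 2 were higher and 1 lower in 4 of 4 rats (7.97% and 22.7% of all genes). Their median of -0.066 by z-score turned to 0.073 by 75th percentile and 0.036 by quantile normalization. Gabbr1 and Gabbr2, the subunits of the metabotropic GABA-B receptor, were each higher in 4 of 4 rats, by 0.22 ± 0.10 and 0.27 ± 0.10, and by 0.16 and 0.12 by quantile normalization. Their second probes differed by 0.06 in 3 of 4 rats for Gabbr1 and by -0.12, with 1 of 4 rats higher, for Gabbr2. Slc32a1, the vesicular GABA transporter, was lower by -0.32 ± 0.13 by z-score in 4 of 4 rats, but measured 0.07 by 75th percentile and -0.05 by quantile normalization. Among 21 genes of synaptic vesicles and scaffolds, 0 were past an unadjusted p of 0.05 by z-score, with differences between -0.708 and 0.27. By quantile normalization 2 were higher and 2 lower at that p (4.14% and 4.48% of all genes). Shank3, a postsynaptic scaffold, was higher in 4 of 4 rats by 0.25 ± 0.11 (0.14 by quantile normalization), while its dimmer probe differed by -0.03 with 1 of 4 rats higher.

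The list of voltage-gated sodium and calcium channels was taken as genes named Scn or Cacn, and it also holds Scnm1, a splicing factor. Of its 37 tested genes, 2 were higher and 3 lower in 4 of 4 rats (7.97% and 22.7% of all genes, and 37.8% higher in the brightest bin). The median was 0.018 by z-score and 0.041 by quantile normalization. Scnm1, which is no channel gene, was among the 3 lower ones, by -0.24 ± 0.09. Cacna2d1, the auxiliary calcium channel subunit that binds gabapentin, measured 6.06, 6.40, 6.51 and 6.51 in 1 Hz and 6.59, 6.83, 6.76 and 6.88 in iTBS. The groups did not overlap, as was the case for 102 of 13560 genes (0.752%) that were higher in iTBS, and the difference was 0.39 ± 0.10, or 0.25 by quantile normalization, while its second probe differed by 0.13 ± 0.13. Kcnh3, a potassium channel of forebrain neurons, was higher by 0.29 ± 0.09, with rats between 0.27 and 0.31, and by 0.25 by quantile normalization, while its dimmer probe differed by 0.05 with 2 of 4 rats higher. Scn3b, an auxiliary sodium channel subunit, was higher in 4 of 4 rats by 0.39 ± 0.12 (0.20 by quantile normalization). Kcnk16, a tandem-pore potassium channel of low level here, was lower in 4 of 4 rats by -0.60 ± 0.13 (-0.22 by quantile normalization). Among 70 potassium channel genes, 7 were higher and 5 lower in 4 of 4 rats (7.97% and 22.7% of all genes). Their median of -0.072 by z-score turned to 0.109 by 75th percentile and 0.037 by quantile normalization. On the last scale 10 were higher and 0 lower at an unadjusted p under 0.05 (4.14% and 4.48% of all genes).

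**Figure D3:**
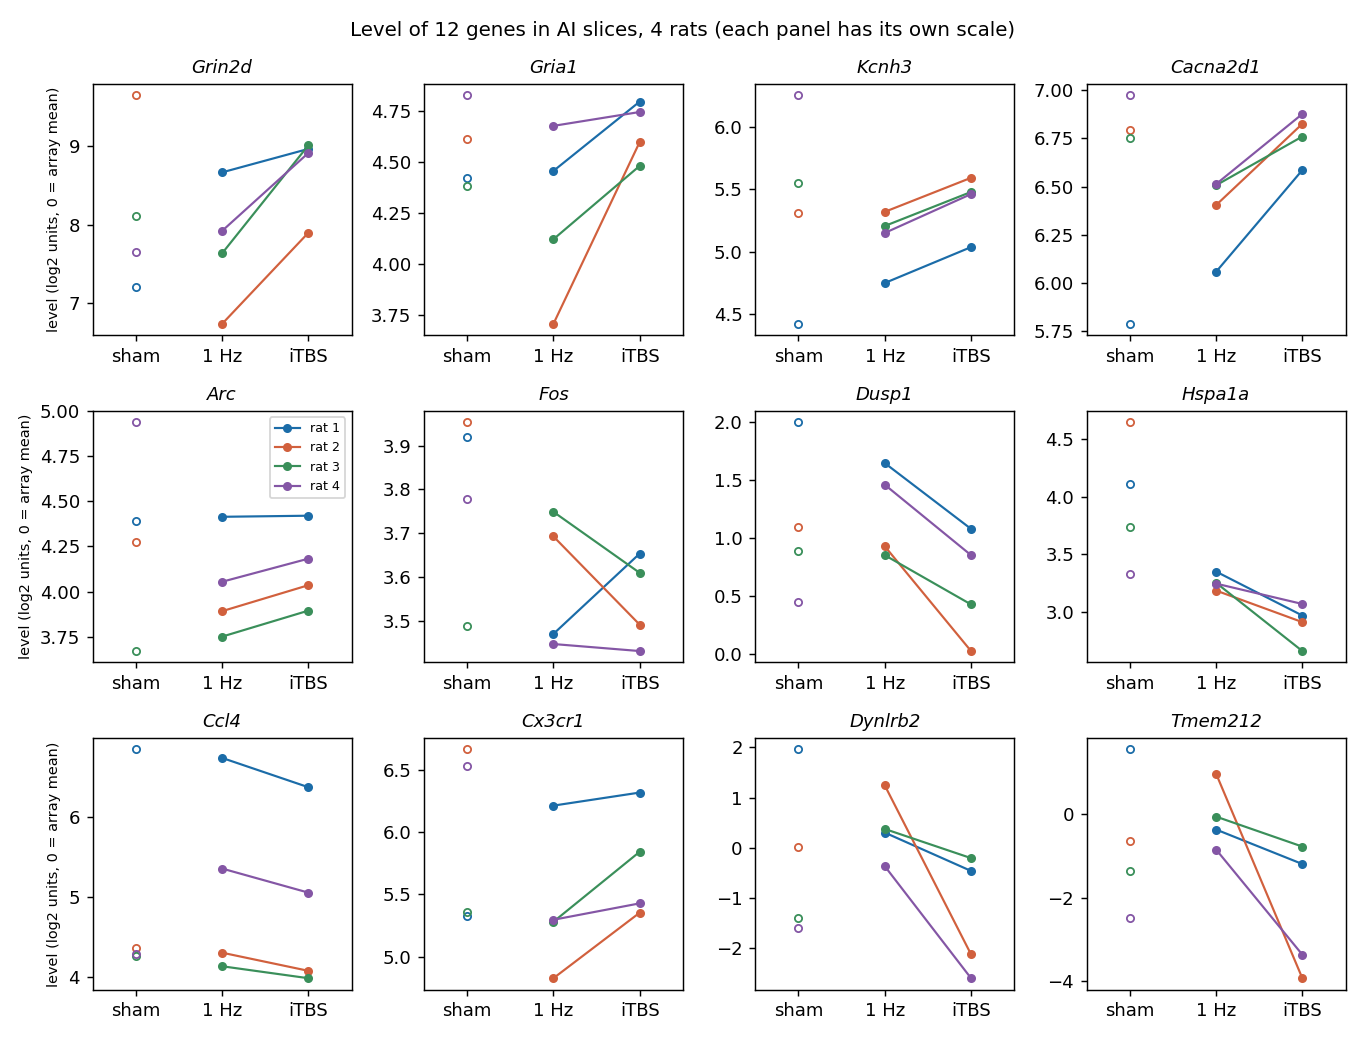
Level (log2 units, 0 = array mean, y axis) of selected genes in 1 Hz and iTBS slices of each AI rat (x axis), with a line joining the stimulated slices of 1 rat and open points for its sham slices. Grin2d was higher in iTBS along every rat's line within overlapping groups, whereas Hspa1a lay between 3.19 and 3.35 in 1 Hz and between 2.67 and 3.07 in iTBS.

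Among heat shock genes, Hspa1a stood apart from the bright chaperones. Hspa1a, the inducible Hsp70, measured 3.35, 3.19, 3.25 and 3.25 in 1 Hz and 2.97, 2.92, 2.67 and 3.07 in iTBS, while the sham slices measured 4.11, 4.64, 3.73 and 3.33. Every stimulated slice was below every sham slice except that the 1 Hz slice of rat 1, at 3.35, was just above the sham slice of rat 4, and the iTBS and 1 Hz ranges did not overlap, as for 296 of 13560 genes (2.18%) that were lower in iTBS. The difference was -0.35 ± 0.11, or 0.782 times the 1 Hz level, and -0.27 by quantile normalization in 4 of 4 rats. Hspa8, the constitutive Hsc70, was higher by 0.38 ± 0.10 in 4 of 4 rats by z-score but differed by -0.06 by quantile normalization, and the dimmest of its 4 probes differed by -0.20. Hsp90ab1 was higher by 0.43 ± 0.15, or 0.19 by quantile normalization, and its second probe differed by -0.05. Of 15 heat shock genes, 3 were higher and 2 lower in 4 of 4 rats (7.97% and 22.7% of all genes).

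C3 and Cd74 varied far more between rats than between protocols. C3, the central complement component, measured 7.81, 3.47, 3.84 and 6.55 in 1 Hz slices of rats 1 to 4, and 7.79, 3.17, 4.46 and 6.35 in iTBS. Rats 1 and 4 were high and rats 2 and 3 low under both protocols, also in sham (7.99, 3.25, 3.67 and 4.99), and the difference between protocols was 0.02 ± 0.18. Cd74, the invariant chain of MHC class II, was likewise high in rats 1 and 4, at 9.01 and 7.69 in 1 Hz, and low in rats 2 and 3, at 3.23 and 3.19, and its differences were 0.22, -1.28, 1.15 and -0.54. The mean of 8 genes of MHC class II presentation likewise differed by -0.07, -0.56, 0.61 and -0.49, with rats of high and of low level on the negative side.

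The mean of 16 complement genes differed by -0.30, -0.25, 0.03 and -0.14 in rats 1 to 4, and by quantile normalization rat 3 stood at 0.17 and the others between -0.23 and -0.12. C4a, of the classical pathway, measured 5.79, 0.19, 0.53 and 4.68 in 1 Hz and 5.44, -0.15, 0.34 and 4.41 in iTBS, lower in 4 of 4 rats by -0.29 ± 0.10. C3ar1, the receptor of the fragment C3a, was lower by -0.41 ± 0.11 and Cfp, properdin, by -0.46 ± 0.13, the latter with no overlap between the groups. By quantile normalization C4a, C3ar1 and Cfp differed by -0.21, -0.17 and -0.20. Of 16 complement genes, 0 were higher and 5 lower at an unadjusted p under 0.05 by z-score (4.43% and 13.1% of all genes) and 0 and 1 by quantile normalization (4.14% and 4.48%). Their median was -0.164 by z-score and -0.083 by quantile normalization, beside -0.095 and -0.012 for all genes.

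Of 26 cytokine and chemokine genes, 1 was higher and 3 lower at an unadjusted p under 0.05 by z-score (4.43% and 13.1% of all genes), and 0 and 6 by quantile normalization (4.14% and 4.48%). Their median was -0.225 by z-score, -0.116 by 75th percentile and -0.138 by quantile normalization. Ccl4, a chemokine of microglia and other myeloid cells, measured 6.73, 4.31, 4.14 and 5.35 in 1 Hz and 6.37, 4.08, 3.99 and 5.05 in iTBS, lower in 4 of 4 rats by -0.26 ± 0.10 and by -0.30 by quantile normalization. Ccl7, a monocyte attractant, was lower in 4 of 4 rats by -0.73 ± 0.28, and rat 1 alone stood at -1.82 beside -0.50, -0.31 and -0.32 (mean -0.50 by quantile normalization). The fractalkine pair went the other way. Cx3cl1, the neuronal ligand, was higher by 0.32 ± 0.12 and Cx3cr1, its receptor on microglia, by 0.33 ± 0.13, each in 4 of 4 rats, with 0.10 and 0.28 by quantile normalization.

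Among other stress-related genes, Lcn2, the iron carrier lipocalin-2, was lower in 4 of 4 rats by -0.42 ± 0.10 (-0.15 by quantile normalization), and Cd14, the endotoxin co-receptor, by -0.50 ± 0.15 (-0.29). In rat 3, however, Cd14 differed by -0.001 by z-score and by 0.121 by quantile normalization. Of 16 genes of acute tissue reaction, 0 were higher and 5 lower in 4 of 4 rats (7.97% and 22.7% of all genes), and by quantile normalization 0 and 1 (8.19% and 9.37%). Gbp2, an interferon-induced GTPase, was lower by -0.49 ± 0.15 in 4 of 4 rats (-0.395 by quantile normalization). Its difference in rat 3 was -0.018 by z-score and 0.215 by quantile normalization. The 21 interferon response genes had a median of -0.107 by z-score, 0.039 by 75th percentile and 0.008 by quantile normalization. Egln3, an oxygen sensor induced by hypoxia, was lower by -0.45 ± 0.11 with no overlap between the groups, and by -0.25 by quantile normalization. Of the 44 genes that the study had listed as selected for its ex vivo slices, 37 were tested, 0 were higher and 9 lower in 4 of 4 rats (7.97% and 22.7% of all genes), and their median was -0.213 by z-score and -0.132 by quantile normalization, with values between -1.14 and 0.62. That list was picked by the study from this same series and is no independent evidence of a direction.

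The most negative values of any cell type list belonged to ciliated ependyma, the lining of the ventricles. Tmem212, a gene of ciliated cells, measured -0.37, 0.97, -0.06 and -0.84 in 1 Hz and -1.19, -3.92, -0.77 and -3.36 in iTBS, and Dynlrb2, a dynein light chain of motile cilia, 0.30, 1.25, 0.38 and -0.36 in 1 Hz and -0.46, -2.12, -0.20 and -2.59 in iTBS. Both were lower in iTBS in 4 of 4 rats, by far the most in rats 2 and 4, with means of -2.24 ± 0.70 and -1.73 ± 0.48, or -1.05 and -0.93 by quantile normalization. Tmem212 was well above background on only 2 of 4 iTBS arrays. Sham slices spread just as widely, from -1.59 to 1.96 for Dynlrb2 and from -2.49 to 1.55 for Tmem212. The mean of the 6 ependymal genes differed by -0.34, -1.71, -0.28 and -1.04 in rats 1 to 4. Foxj1, the master factor of motile cilia, was chosen after its values were seen and differed by 0.03 ± 0.10 (0.17 by quantile normalization) at its brighter probe and by -0.55 ± 0.24 (-0.29), with 1 of 4 rats higher, at the other.

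Choroid plexus genes, from the tissue attached to the ventricular edge, spread in both directions. Folr1, the folate receptor of the choroid plexus, was lower in 4 of 4 rats by -1.14 ± 0.37 (-0.51 by quantile normalization), with levels from -1.25 to -0.42 in 1 Hz and from -3.02 to -1.20 in iTBS. Ttr, transthyretin, the most abundant secreted protein of that tissue, differed by -0.13, -1.07, 0.82 and -1.45. Only 7 of the 14 choroid plexus genes on the array were tested, and the defining genes Kl, Clic6 and Cldn2 were well above background on 0 of the 8 arrays. Markers of other adjoining tissue were lower as well on the z-score scale, with a median of -0.246 over 10 meningeal genes that was -0.003 by 75th percentile and -0.054 by quantile normalization. The part that slice edges or ventricular lining had in the values of other genes was not tested.

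Glial and myelin genes had mixed values. The brightest probe of Mbp, myelin basic protein, measured 10.44, 9.10, 9.66 and 9.84 in 1 Hz and 10.76, 9.73, 10.36 and 10.30 in iTBS, higher in 4 of 4 rats by 0.52 ± 0.11, whereas a dim probe of another Mbp transcript was lower in 4 of 4 rats by -0.49 ± 0.11. By quantile normalization the probes differed by 0.07 and -0.23. Erbb3, the neuregulin receptor of the oligodendrocyte lineage, was lower in 4 of 4 rats by -0.47 ± 0.12 (-0.15 by quantile normalization), and Klk6, a protease of mature oligodendrocytes, was lower in 3 of 4 by -0.41 ± 0.16 (-0.32). The median of 15 myelin genes was -0.104 by z-score and -0.158 by quantile normalization. Of 9 microglial genes, Cx3cr1 was higher as given above and Tmem119, a homeostatic surface marker, was lower in 4 of 4 rats by -0.38 ± 0.11 (-0.25), so markers of the same cells took opposite directions. The 8 astrocyte genes had a median of 0.185 by z-score and 0.035 by quantile normalization.

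**Figure D4:**
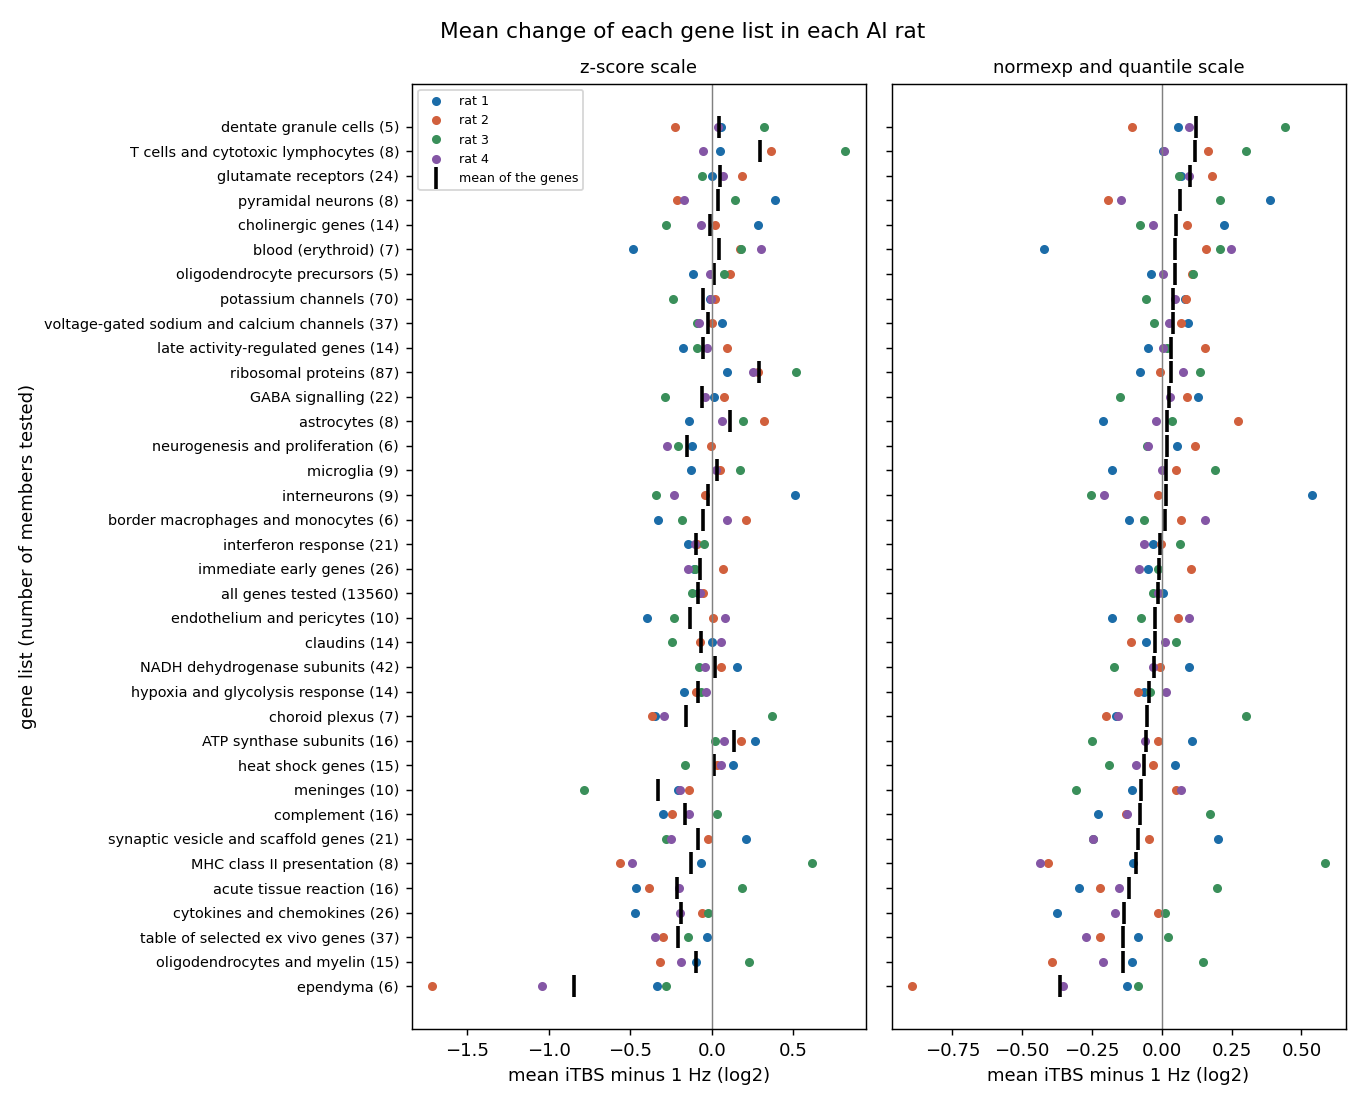
Mean difference between iTBS and 1 Hz (log2, x axis) of the tested members of each gene list with at least 5 of them (y axis, with the number of members) in each of the 4 AI rats (points) and over its genes (black bars), by z-score on the left and by quantile normalization on the right. By z-score ependymal genes lay at -1.71 and -1.04 in rats 2 and 4 and at -0.34 and -0.28 in rats 1 and 3, while ribosomal protein genes lay between 0.09 and 0.52 by z-score and between -0.08 and 0.14 by quantile normalization.

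The clearest common direction of any family belonged to ribosomal protein genes and depended on the scaling. Of 87 genes of the cytoplasmic ribosome, taken as those named Rpl or Rps, 65 were higher and 0 lower in 4 of 4 rats (7.97% and 22.7% of all genes, 37.8% and 0.442% of the brightest bin), with a median of 0.312 by z-score and 0.105 by 75th percentile. By quantile normalization 5 were higher and 3 lower (8.19% and 9.37% of all genes), with a median of 0.026. Rpl27a, of the large subunit, was higher by 0.44 ± 0.11 by z-score and 0.18 by quantile normalization. The brightest bin of all genes, as given above, had a median of 0.124 by z-score. The 16 ATP synthase genes followed the same pattern. By z-score 9 were higher and 0 lower in 4 of 4 rats (7.97% and 22.7% of all genes, 37.8% and 0.442% of the brightest bin), with a median of 0.164. By quantile normalization 0 were higher and 1 lower (8.19% and 9.37% of all genes), with a median of -0.038. Of 42 NADH dehydrogenase genes and their assembly factors, 15 were higher and 6 lower in 4 of 4 rats (7.97% and 22.7% of all genes, 37.8% and 0.442% of the brightest bin). By quantile normalization the counts were 2 and 4 (8.19% and 9.37% of all genes). Ndufs4, a subunit needed to assemble complex I, was among the lower ones, with a difference of -0.58 ± 0.14 by z-score and -0.30 by quantile normalization.

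The genes with the smallest p over the whole array were mostly dim. Decr2, a peroxisomal reductase of fatty acid oxidation, measured -2.16, -1.47, -2.18 and -1.90 in 1 Hz and -3.12, -2.63, -3.35 and -2.58 in iTBS. The groups did not overlap, and the difference was -0.996 ± 0.124 (0.501 times the 1 Hz level), or -0.32 by quantile normalization. Mad2l1bp, a regulator of the spindle checkpoint, was lower by -0.90 ± 0.13 (-0.31 by quantile normalization) and Tlnrd1, an actin-bundling protein, by -0.88 ± 0.12 (-0.56). Arcn1, the delta subunit of the COPI vesicle coat, measured 1.44, 1.54, 1.30 and 1.37 in 1 Hz and 0.79, 0.60, 0.51 and 0.84 in iTBS, with no overlap, a difference of -0.73 ± 0.11 and -0.49 by quantile normalization. Mfsd1, a lysosomal transporter, was lower by -0.86 ± 0.11 (-0.38 by quantile normalization), but its second probe differed by 0.04 ± 0.12. Of the genes higher in iTBS, Fabp1, a fatty acid binding protein typical of liver, differed by 1.27 ± 0.19 and Slc7a9, an amino acid transporter of kidney, by 1.22 ± 0.18, with all levels between -3.54 and -0.73. By quantile normalization these differed by 0.57 and 0.44.

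The same contrast was measured in young and AU slices, each with 4 other rats. At an unadjusted p under 0.05 it gave 4282 probes (12.6%) in young and 1822 (5.36%) in AU, and 0 probes with an adjusted p under 0.05 in either. The difference of the contrast between AI and young was past an adjusted p of 0.05 for 0 probes (0%) and past an unadjusted p of 0.05 for 1856 (5.46%). Between AI and AU it was past the adjusted threshold for 0 probes (0%), with a smallest adjusted p of 0.113, and past the unadjusted one for 7334 (21.6%). With arrays centred on the 75th percentile alone 318 probes were called between AI and AU, all of them higher in AI, and by quantile normalization 0. The SD of log2 signals was larger on iTBS than on 1 Hz arrays in 4 of 4 AU rats, by 0.04 to 0.30, and smaller in 4 of 4 AI rats, and its part in the difference was not tested.

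Several of the genes named above took opposite directions in AI and AU slices. Many of them had been chosen by their values in AI slices, and the share of all genes that did so was not counted. Grin2d differed by 0.96 in AI, by -0.94 ± 0.23 in AU with 0 of 4 rats higher, and by 0.61 ± 0.52 in young with 3 of 4 higher. The gap between AI and AU was 1.90 (limma adjusted p = 0.133), and by quantile normalization the values were 0.70 and -0.63. Cx3cr1 stood at 0.33 in AI and -0.52 ± 0.20 in AU, a gap of 0.85 (adjusted p = 0.124), and by quantile normalization at 0.28 and -0.48. Cacna2d1 stood at 0.39 and -0.20 ± 0.12, a gap of 0.59 (adjusted p = 0.114), and by quantile normalization at 0.25 and -0.17. Folr1 was opposite to these, at -1.14 in AI and 1.52 ± 0.55 in AU, a gap of -2.67 (adjusted p = 0.136), and by quantile normalization at -0.51 and 0.78, a gap of -1.30. The bright Mbp probe differed by 0.52 and -0.52 by z-score but by 0.07 and -0.14 by quantile normalization. Hspa1a was lower in AI and in AU, by -0.35 in AI and -0.33 ± 0.14 in AU with 0 of 4 rats higher in each, and by -0.07 ± 0.14 in young.

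**Figure D5:**
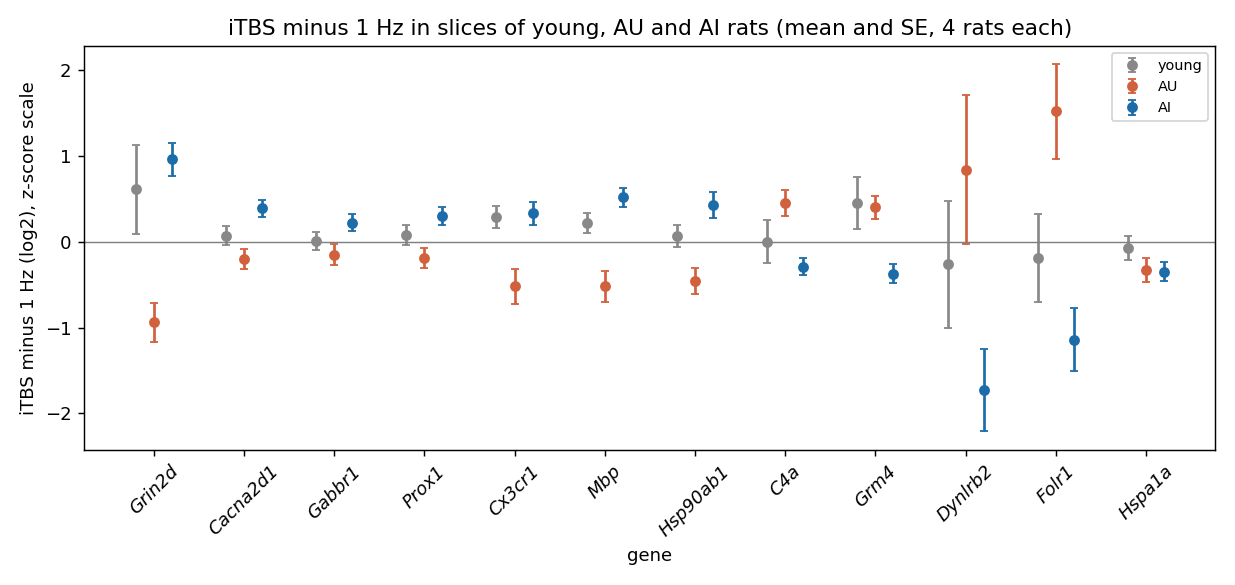
Difference between iTBS and 1 Hz (log2, z-score scale, y axis) of selected genes (x axis) in young, AU and AI rats, as the mean of 4 rats (points) with its SE (bars). Grin2d lay at 0.96 in AI and -0.94 in AU, Folr1 at -1.14 and 1.52, and Hspa1a at -0.35 and -0.33.

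Repeat hybridization gave the size of the technical spread. The RNA of the iTBS slices of rat 1 was hybridized again on another slide, and the SD of the difference between these arrays over all tested probes was 0.258, with a Pearson correlation of 0.9963 across probes. Between iTBS and 1 Hz of 1 rat the SD of the difference was 0.417, 0.545, 0.545 and 0.453 in rats 1 to 4. By quantile normalization the repeat differed with an SD of 0.157 and the pairs with 0.245 to 0.272.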

How the data were processed

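Total RNA of hippocampal slices was labelled with Cy3 and hybridized by the authors to 1-colour Agilent 8x60K arrays. The deposited scanner files hold intensity per spot, of which the background-corrected processed signal was used, and 0 non-control spots were saturated. The authors also deposited a table of z-scores, the log2 signal standardized within each array, and this score agreed within 0.005 with one recomputed from the processed signal. That z-score times 4.158, on the log2 scale, was the main value, computed here from the deposited intensity. Spots of a probe were averaged over 45598 non-control probes, 21109 of which had a gene symbol (16581 genes), and 6958 probes of Ensembl transcripts were left unnamed. Levels of different genes come from different probes and are not compared.

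Probes well above background on at least 4 of the 8 arrays were tested with limma 3.58.1 in R 4.3.3 (lmFit and eBayes), the rat as a fixed block and Benjamini-Hochberg adjustment at 0.05. 59 values of flagged spots were missing on the 8 arrays, and such a probe was fitted without that array. Pairing by rat comes from the sample descriptions, which give both slices the same animal number, and deviations from the group means of the 2 arrays of a rat correlated at 0.763, 0.648, 0.306 and 0.39. Precision is limited by the small number of arrays. Intervals are 95%. The criteria of the methods combine a z-test, a z-ratio over 1.5, a false discovery rate of 0.3, a mean z-score above 0 and an analysis of variance over 9 groups, and the z-test was rebuilt from their wording. The fit of iTBS against 1 Hz in AI slices was tested on simulated data with 200 of 33908 probes changed. It recovered 0% of changes of 0.5 (log2), 20% of 1, 76% of 1.5 and 78% of 2, with 0 false calls. The fit of the difference between AI and AU, with 200 of 33710 probes changed, recovered 2%, 32%, 54% and 82% of these, with 6 false calls. Figures were drawn with matplotlib 3.10.9.

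The comparison and its 37 gene lists were chosen with earlier results of these data known, and the list of selected ex vivo genes comes from the study's table. Genes are represented by their brightest probe. The genes named are the smallest p values in each direction of the same sign in 4 of 4 rats, the 3 smallest p values of each list, and Fos, Arc, Egr1, Npas4, Hspa1a, Bdnf, C3, Cd74, Mbp and Ttr, apart from those said to be chosen after their values were seen. Alternatives were other scalings (75th percentile, and quantile normalization of signals corrected by normexp, offset 50, on median spot signals because the files hold no mean signal), the authors' z-scores, filters, models, array weights, the slide as a block, and each rat left out. The combinations of a scaling with no block or with a rat left out were added after seeing the data. Some genes the rule names are not reported here. Sequences are not printed.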

Additional observations from a re-analysis of the deposited data

Results flagged for a closer look

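Chance alone puts 1 sample far from the other 3 in about 1 in 20 groups of 4. The screen covered 64 named genes and 38 list means, all genes included, each in 1 Hz and in iTBS slices. The flagged cases were about as many as this rate gives. Single arrays stood far from the other 3 of their group for the following genes. In 1 Hz slices, rat 2 measured 6.80 for Hsp90ab1 while the others lay between 7.60 and 7.72. Rat 2 measured 0.02 for Mfsd1 beside -0.63 to -0.52. Rat 1 measured -1.83 for Slc7a9 beside -3.50 to -3.26 and 0.81 for Foxj1 beside 0.32 to 0.40. In iTBS slices, rat 2 measured 7.90 for Grin2d beside 8.92 to 9.02 and rat 1 measured 0.22 for Egln3 beside 0.67 to 0.74.

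Means of gene lists stood apart in 5 cases. In iTBS slices of rat 2 dentate granule cell genes averaged 2.00, interneuron genes 3.22 and cholinergic genes -0.48, and in 1 Hz slices of rat 1 heat shock genes averaged 4.49 and genes of synaptic vesicles and scaffolds 3.84.

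The SD of log2 signals differed by -0.242 on average between iTBS and 1 Hz in AI and by 0.158 in AU, with every AI rat on one side of 0 and every AU rat on the other, and this difference was not tested. The difference between AI and AU was tested with limma for all 33963 probes, and 0 passed the adjusted threshold. Among 64 named genes, many of them chosen by their AI values, the following had AI and AU rats that all took opposite directions. The share of all genes that did so was not counted. By z-score the AI values were 0.38 for Hspa8, 0.43 for Hsp90ab1, 0.96 for Grin2d, -0.37 for Grm4, 0.22 for Gabbr1, 0.25 for Shank3, 0.39 for Cacna2d1, 0.30 for Prox1, -0.29 for C4a, 0.33 for Cx3cr1, 0.52 for Mbp and -1.14 for Folr1. The AU values in the same order were -0.38, -0.46, -0.94, 0.40, -0.15, -0.08, -0.20, -0.19, 0.45, -0.52, -0.52 and 1.52. The adjusted p values of the differences lay between 0.113 for Mbp and 0.215 for Shank3. By quantile normalization the AU value of Hspa8 was 0.03, that of Hsp90ab1 -0.13 with 1 of 4 rats higher, and that of Shank3 -0.05 with 3 of 4 higher. Among AI rats on that scale, 1 of 4 was higher for Hspa8, Grm4 and C4a, and 3 of 4 for Hsp90ab1, Shank3 and Mbp. None of these genes kept the opposite directions in all rats by quantile normalization. Scn3b differed by 0.39 in AI and -0.36 in young, in 4 of 4 rats each (adjusted p = 0.819).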

How the results depend on the processing

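No alternative called a probe between iTBS and 1 Hz in AI slices, except the criteria of the methods, which called 1, and their z-test and z-ratio alone, which called 1148 (674 higher, 474 lower). Without the replicate block, that is without pairing by rat, 0 probes were called with limma and 1054 had an unadjusted p under 0.05, against 6009 with it. That number was 615 over 36 arrays without the block and 2528 with it, 1270 with the sham arrays of the AI rats, 2009 with the slide as a further block, 3199 by quantile normalization, 453 by quantile normalization and 783 by 75th percentile without the block, and 3641 to 5466 with 1 rat left out. By quantile normalization without rat 1, 2, 3 or 4 it was 4555, 1810, 2541 and 2290, and without rat 1 the smallest adjusted p was 0.0528. The share of those probes that were higher was 32.6% by z-score, 96.4% by 75th percentile and 62.2% by quantile normalization. Between AI and AU, 75th percentile scaling called 318 probes. The SD of the repeat hybridization was 0.157 by quantile normalization. Why these counts differ was not tested. In the simulated data, with 200 probes changed and independent noise in each probe, most changes of 1 log2 unit were not recovered. Shifts shared by many probes were not simulated, so this sets no detection limit for the real arrays.

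Of 64 genes, 53 kept their sign in all 23 alternatives and 11 did not. Much of this was fixed in advance. A gene of the same sign in 4 of 4 rats, as most of these were by z-score, cannot reverse on that scale with 1 rat left out. Several of the models change the error of a difference but not its value. The reversed values ran up to 0.28 in size, for Cd74 with 1 rat left out. Fos took 0.02 by quantile normalization with and without the block, 0.08, 0.04 and 0.02 by it without rat 2, 3 or 4, and -0.12 to 0.01 with 1 rat left out. Egr1 took -0.04 and Bdnf 0 by quantile normalization without rat 2, and Egr1 ranged from 0 to 0.19 with 1 rat left out. Hspa8 took -0.06 by quantile normalization with and without the block, and -0.08, -0.05, -0.05 and -0.06 by it without rats 1 to 4 in turn. Hsp90ab1 took -0.01 by quantile normalization without rat 2. Slc32a1 took 0.07 by 75th percentile with and without the block and 0.01 by quantile normalization without rat 3. C3 took -0.04 by 75th percentile with and without the block, -0.03 with array weights, -0.21 by quantile normalization without rat 3, and -0.18 to 0.13 with 1 rat left out. Cd74 took 0.15 and 0.01 by quantile normalization without rat 2 or 4 and -0.54 to 0.28 with 1 rat left out. Ttr took 0.15 by quantile normalization without rat 4 and Atp5me -0.02 without rat 1. Foxj1 took -0.01 with the repeat averaged in and -0.03 to 0.08 with 1 rat left out. Of 38 list means, all genes included, 13 moved by more than the SD between rats by 75th percentile, 5 by quantile normalization and 1 without the filter. Leaving out 1 of 4 rats cannot move a mean by that SD, so this measure says nothing about single rats.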

Other observations

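Genes of other cells were also measured in AI slices, again with 0 past the adjusted threshold. Of 8 genes of T cells and cytotoxic lymphocytes, 1 was higher and 0 lower in 4 of 4 rats (7.97% and 22.7% of all genes). The median difference over the list was 0.266 by z-score, 0.688 by 75th percentile and 0.124 by quantile normalization. Mean levels in 1 Hz slices ran from -3.65 for Cd3e to 0.01 for Cd3d. Of 10 genes of endothelium and pericytes, 0 were higher and 3 lower in 4 of 4 rats (7.97% and 22.7% of all genes), with a median of -0.106 by z-score, 0.014 by 75th percentile and -0.018 by quantile normalization. Of 14 cholinergic genes, 1 was higher and 0 lower in 4 of 4 rats, and of 14 claudin genes 2 were higher and 1 lower (7.97% and 22.7% of all genes). The 7 erythroid genes differed by -0.48 in rat 1 and by 0.17, 0.18 and 0.30 in rats 2 to 4, and 0 of them took 1 direction in 4 of 4 rats.

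A further repeat array, titled as iTBS of AI rat 2 but described as 1 Hz of that rat, entered no comparison. Over the tested probes it differed with an SD of 0.525 from the primary iTBS array of that rat and of 0.36 from its 1 Hz array.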
